A study of Bos taurus with 7 samples.

Results

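The genes described here encode proteins that the growing oocyte stores for the embryo: *NLRP5*, *OOEP*, *TLE6* and *PADI6* of the subcortical maternal complex and the cytoplasmic lattices, the oocyte NLRP gene *NLRP14*, and *NPM2*, the oocyte nucleoplasmin. They are 6 of the 23704 genes with a matched transcript model, and all 6 were detected in all 7 libraries. The 6 genes were selected by name with the values of these libraries, secondary against primary follicles, already known. Their levels and differences between the stages are therefore given as a description. No p-value is given for any of them, and the counts of calls from the fit across all genes support nothing about them. The estimated counts and the TPM (abundance per transcript length, scaled to the same total in every library) of the models of each gene were summed.

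The subcortical maternal complex is a multiprotein assembly beneath the membrane of the mammalian oocyte. Its core is built from NLRP5 (also called MATER), OOEP (also called FLOPED) and TLE6, and further proteins such as KHDC3L bind to it. Mouse females that lack one of the core proteins ovulate oocytes whose embryos stop at the first cleavages. The same genes are read from the oocyte genome during follicle growth, together with those of the zona pellucida, the glycoprotein coat that forms around the growing oocyte.

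RNA sequencing was done on whole follicles, in which the oocyte and its granulosa cells are read together. Primary follicles (PF, 4 libraries) have a single layer of cuboidal granulosa cells, and the early secondary follicles (SF, 3 libraries) have several layers. Both groups came from ovaries of young Holstein Friesian dairy cows collected at an abattoir. The follicles were freed mechanically, sorted by mesh and by shape, and left for a short recovery in medium with FSH before lysis, so all groups share this handling. Each library is a pool of follicles, and the sources used here do not name the animals in it. The p-values below therefore rest on the spread among these libraries alone, which may be technical.

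The libraries held 18788105 to 23764615 estimated counts each. PF replicate 4 stood apart and was left out of the comparison, a choice that follows the study's methods. Its stromal fibroblast list score, the mean log2(TPM + 1) of 8 genes, was 8.09, whereas PF replicates 1 to 3 had 2.56 to 3.03 and SF 2.48 to 3.50. For the oocyte list it scored 3.68, whereas PF replicates 1 to 3 had 6.19 to 7.08 and SF 3.24 to 5.33. Its values for the 6 genes are given beside those of the other libraries. Group levels are given as mean ± SD of TPM (n = 3 per group), and log2 fold changes, with SF as numerator, as DESeq2 estimate ± SE.

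The 6 genes held a small share of the reads, and the share differed widely between libraries. They took 0.159%, 0.152% and 0.0851% of the estimated counts of PF replicates 1 to 3, 0.0116% of PF replicate 4, and 0.0413%, 0.0308% and 0.00697% of SF replicates 1 to 3. PF replicates 1 and 2 thus held the most, and SF replicate 3 the least. PF replicate 4 lay between SF replicates 2 and 3. In bulk follicles, a smaller share of oocyte RNA in the pool and less RNA of these genes per oocyte cannot be told apart.

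*NPM2* was first and *OOEP* second in all 7 libraries by TPM, and together they made up most of the summed TPM of the group, 61.0% to 67.4% for *NPM2* and 22.1% to 28.2% for *OOEP*. In PF replicates 1 to 3 and in SF replicate 3 the order went on with *NLRP14*, *PADI6*, *TLE6* and *NLRP5*. In SF replicates 1 and 2 *PADI6* stood above *NLRP14*, and in PF replicate 4 *TLE6* stood above *PADI6*. Among neighbours in this order, the ranges of *NPM2*, *OOEP* and *NLRP14* in PF replicates 1 to 3 did not overlap, while those of the lower 4 genes did. In SF the ranges of all neighbours overlapped.

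**Figure D1:**
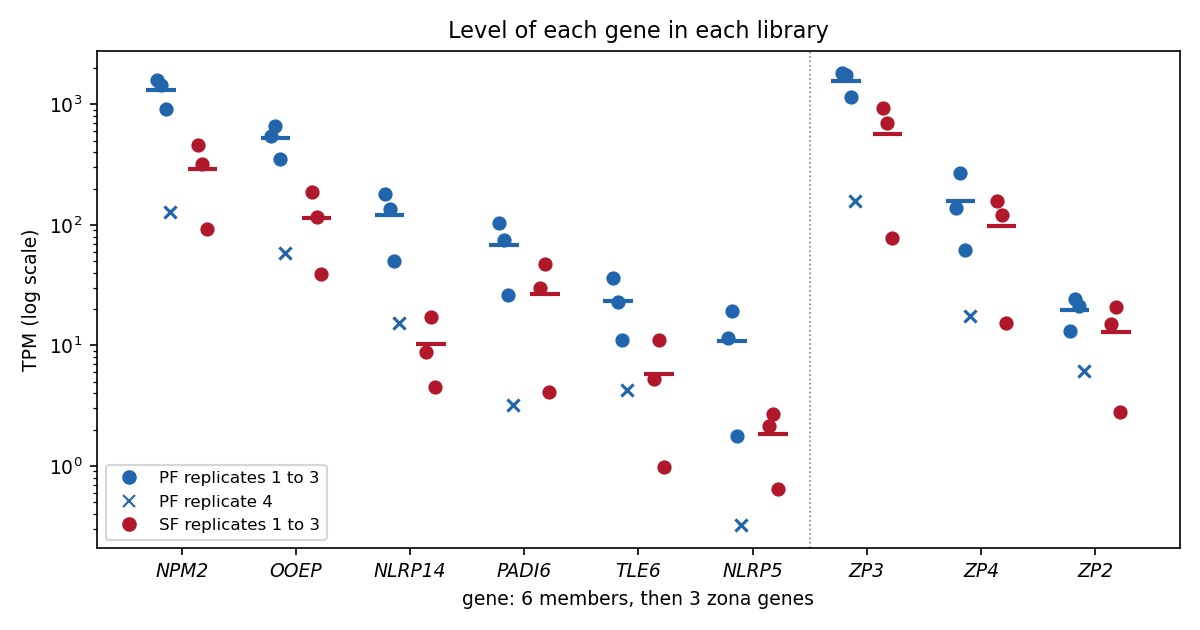
TPM on a log scale (y axis) for the 6 genes and the 3 zona genes (x axis), with 1 point per library and a bar at the mean of the 3 libraries in the comparison. The 3 SF points of *NPM2*, *OOEP*, *NLRP14* and *ZP3* lie below the points of PF replicates 1 to 3, while the groups overlap for the other genes, and the cross of PF replicate 4 lies below the other PF points in every gene.

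*NLRP5* encodes the scaffold of the complex and was the scarcest of the 6 genes. It had 11.5, 19.4 and 1.77 TPM in PF replicates 1 to 3, 0.322 TPM in PF replicate 4, and 2.16, 2.72 and 0.646 TPM in SF replicates 1 to 3. PF replicates 1 and 2 were high, and PF replicate 3 lay below SF replicates 1 and 2, so the groups overlapped. The mean was 10.9 ± 8.83 TPM in PF and 1.84 ± 1.07 TPM in SF, with a log2 fold change of -2.44 ± 0.85. The lowest values rest on few reads, with 15 estimated counts in PF replicate 4 and 33 in SF replicate 3. On the assembly of the gene table, the span of *NLRP5* overlaps that of a long non-coding RNA gene, *LOC132342887*. Whether their exons overlap was not checked. The library kit does not mark strand, so reads shared by both genes, if any, cannot be told apart.

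*OOEP* encodes a small protein with a KH-like RNA-binding domain, a core partner of NLRP5. It had 551, 662 and 350.03 TPM in PF replicates 1 to 3, 58.4 TPM in PF replicate 4, and 187, 115 and 38.9 TPM in SF replicates 1 to 3. Every SF library lay below PF replicates 1 to 3, and SF replicates 1 and 2 lay above PF replicate 4. The mean was 521 ± 158 TPM in PF and 114 ± 74.2 TPM in SF, a 4.58-fold difference of the means, with a log2 fold change of -2.08 ± 0.55.

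*TLE6* encodes the third core protein, a member of the transducin-like enhancer family. It had 36.4, 22.9 and 11.0 TPM in PF replicates 1 to 3, 4.23 TPM in PF replicate 4, and 5.24, 11.1 and 0.972 TPM in SF replicates 1 to 3. SF replicate 2 lay just above PF replicate 3, so the groups overlapped. The mean was 23.4 ± 12.7 TPM in PF and 5.78 ± 5.10 TPM in SF, with a log2 fold change of -1.94 ± 0.80. The value of SF replicate 3 rests on 26 estimated counts.

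*TLE6* was also the gene whose reads were spread over the most models. Of its 7 models in the files, the main one held 62.8% to 100% of the TPM in 5 libraries and none in PF replicate 4 and SF replicate 3. Another 2 models were at 0 in all libraries. The splice form of *TLE6* is therefore not resolved at this depth, and only the gene sum is used. On the assembly of the gene table the span of *TLE6* overlaps those of *TLE2* and *ZNF77*. Whether exons overlap was not checked, and without strand any shared reads cannot be told apart. By contrast *NLRP5*, *NLRP14*, *OOEP* and *PADI6* had 1 model each, and the main model of *NPM2* held 91.8% to 96.9% of its TPM.

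*PADI6* encodes an oocyte member of the peptidylarginine deiminase family that is needed for the cytoplasmic lattices. It had 104, 75.0 and 26.2 TPM in PF replicates 1 to 3, 3.22 TPM in PF replicate 4, and 29.8, 46.9 and 4.08 TPM in SF replicates 1 to 3. SF replicates 1 and 2 lay above PF replicate 3, and SF replicate 3 lay close to PF replicate 4. The mean was 68.3 ± 39.1 TPM in PF and 26.9 ± 21.6 TPM in SF, with the smallest log2 fold change of the 6 genes, -1.24 ± 0.77.

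*NLRP14* is an NLRP family gene expressed in germ cells and needed for the early mouse embryo. It had 179, 135 and 50.3 TPM in PF replicates 1 to 3, 15.4 TPM in PF replicate 4, and 8.90, 17.2 and 4.49 TPM in SF replicates 1 to 3. All SF libraries were below PF replicates 1 to 3, and SF replicate 2 was just above PF replicate 4. The mean was 122 ± 65.6 TPM in PF and 10.2 ± 6.43 TPM in SF, a 12.0-fold difference of the means, with a log2 fold change of -3.46 ± 0.56.

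*NPM2* encodes nucleoplasmin, the histone chaperone of the oocyte nucleus that helps to remodel sperm chromatin after fertilization. It had 1606, 1435 and 910.04 TPM in PF replicates 1 to 3, 128 TPM in PF replicate 4, and 458, 318 and 93.0 TPM in SF replicates 1 to 3. Every SF library lay below PF replicates 1 to 3, and SF replicates 1 and 2 lay above PF replicate 4. The mean was 1317 ± 363 TPM in PF and 289.6 ± 184 TPM in SF, a 4.55-fold difference of the means, with a log2 fold change of -2.06 ± 0.55.

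In the fit across all genes, 4 of the 6 genes were below the adjusted p of 0.05 (*NLRP5*, *NLRP14*, *OOEP* and *NPM2*), all with lower levels in SF, where 11.0% of the 15056 genes tested were called lower. *PADI6* and *TLE6* were not called. In 3 of the 6 genes (*NLRP14*, *OOEP* and *NPM2*) all SF libraries lay below PF replicates 1 to 3. The same held for 12 of 14 oocyte marker genes and for 18.5% of all genes tested. The median log2 fold change was -2.07 over the 6 genes, -1.82 over the 14 oocyte markers and 0.02 over all genes tested. Since the genes were chosen with this contrast known, nothing is read from these counts.

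The count of 4 depended on single libraries and on the tool. Without PF replicate 1, PF replicate 2, SF replicate 1 or SF replicate 3 it was 3, because *NLRP5* was no longer called. Without SF replicate 2 it stayed at 4, with *TLE6* called in place of *NLRP5*. With PF replicate 4 kept, only *NLRP14* was called. The quasi-likelihood test of edgeR called none of the 6, and none of all genes tested, while 5 of the 6 and 3845 of all genes had an unadjusted p below 0.05. All 6 fold changes were below 0 in each of the 17 alternative fits.

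**Figure D2:**
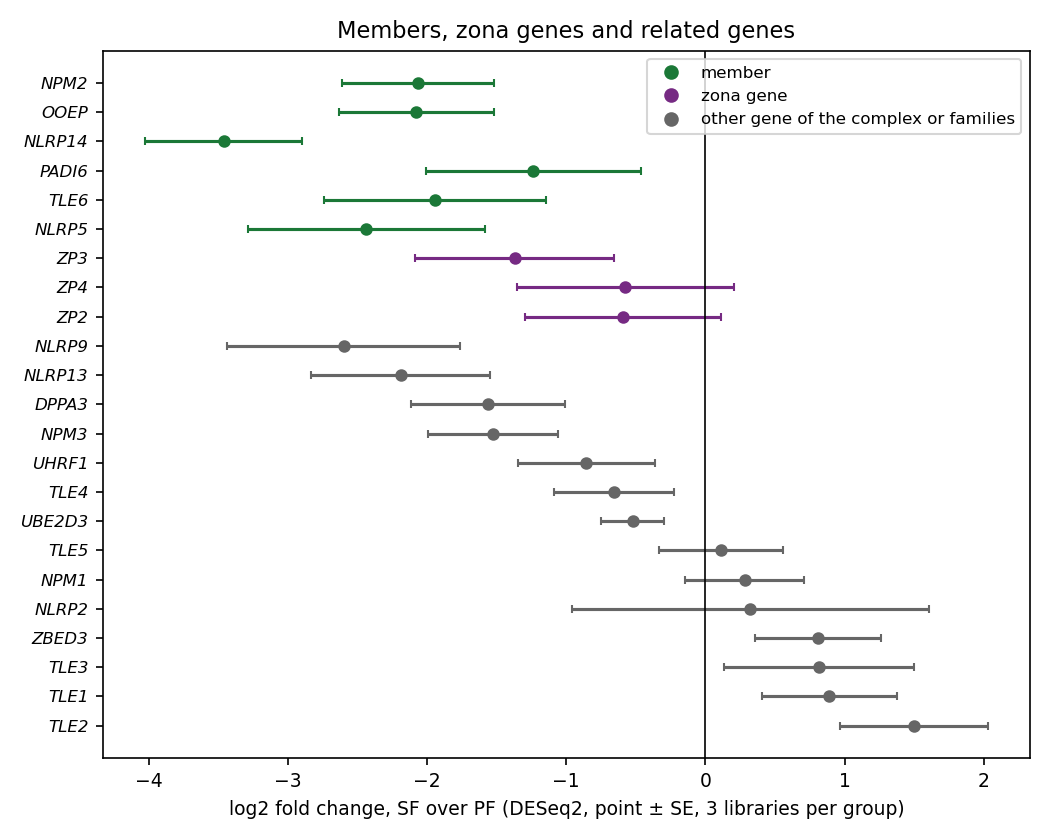
Log2 fold change of SF over PF from DESeq2 (x axis, point ± SE, 3 libraries per group) for the 6 genes, the 3 zona genes and 14 related genes (y axis). The 6 genes lie between -3.46 (*NLRP14*) and -1.24 (*PADI6*), the zona genes between -1.37 and -0.57, and the related genes on both sides of 0.

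The zona genes encode proteins of the coat and, like the 6 genes, are read from the oocyte genome, so they were used as a reference. Whether their share of the oocyte RNA is the same in both groups is not known. *ZP3*, the most abundant of them, had 1809, 1737 and 1146 TPM in PF replicates 1 to 3, 157 TPM in PF replicate 4, and 933, 703 and 77.6 TPM in SF replicates 1 to 3. *ZP4* had 137, 271 and 61.4 TPM in PF replicates 1 to 3, 17.5 TPM in PF replicate 4, and 157, 120.4 and 15.4 TPM in SF. *ZP2* had 13.1, 24.5 and 21.2 TPM in PF replicates 1 to 3, 6.16 TPM in PF replicate 4, and 14.9, 20.8 and 2.80 TPM in SF. SF replicate 3 and PF replicate 4 were thus low in all 3 zona genes, as they were in the 6 genes.

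None of the zona genes passed the test. The log2 fold change was -1.37 ± 0.72 for *ZP3* (DESeq2 adjusted p = 0.17), -0.57 ± 0.78 for *ZP4* (0.66) and -0.59 ± 0.70 for *ZP2* (0.61). *ZP3* passed without SF replicate 3 (DESeq2 adjusted p = 0.025). Only 1 of the 5 models of *ZP2* in the gene table was matched in the files, so its level may be incomplete.

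Relative to the zona genes, the 6 genes were lower in SF on average, but the libraries overlapped. The zona genes themselves were higher in SF when measured against the oocyte markers. Without PF replicate 4, their SF minus PF difference on that measure was 0.89, and that of the 6 genes was -0.10. The values relative to the zona genes therefore depend on the zona genes as well as on the 6 genes. The mean log2(TPM + 1) of the 6 genes minus that of the 3 zona genes was -0.11, -0.82 and -1.24 in PF replicates 1 to 3, -1.15 in PF replicate 4, and -2.23, -1.87 and -1.02 in SF replicates 1 to 3. SF replicates 1 and 2 were the lowest of all, whereas SF replicate 3 lay above PF replicates 3 and 4. The group means were -0.72 ± 0.57 in PF and -1.71 ± 0.62 in SF, a difference of -0.99, and -0.88 with PF replicate 4 kept.

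This difference varied with the library number, which is part of each library's name and which the labels do not explain. It was -1.77 within numbers below 40 (PF replicates 1 and 2 and SF replicate 1) and -0.21 within numbers above 40 without PF replicate 4 (PF replicate 3 and SF replicates 2 and 3). One of the groups in each range holds a single library. The part of the library number in the result was not tested further.

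The size of the difference from the zona genes varied among the 6 genes. On the same log2 scale the SF minus PF difference was -2.15 for *NLRP14*, -1.13 for *NPM2*, -1.11 for *OOEP*, -0.76 for *TLE6*, -0.44 for *NLRP5* and -0.33 for *PADI6*. The SD in PF and SF was 1.07 and 1.09 for *NLRP5*, 0.73 and 1.06 for *NLRP14*, and 0.72 and 0.70 for *TLE6*. The order was not tested, and sizes at low TPM depend on the added 1. With 0.1 added instead, the difference without the zona genes went from -1.73 to -2.16 for *NLRP5* and from -2.06 to -2.39 for *TLE6*. For *OOEP* it went from -2.40 to -2.41. For *NLRP14*, *NPM2* and *OOEP*, all SF libraries lay below PF replicates 1 to 3. Measured the same way, this held for 1.47% of all genes tested, while 25.6% had all SF libraries above PF replicates 1 to 3. Most genes thus shift upward in SF on this scale, and nothing is read from the count of 3. The DESeq2 fit with size factors from the zona genes called none of the 6. PF replicate 4 lay within the SF range for *NPM2* and *OOEP* and above it for *NLRP14*. For *TLE6*, *NLRP5* and *PADI6* the groups overlapped. Above library number 40 the differences of these last 3 were above 0 (0.06, 1.19 and 0.55), while those of *NLRP14*, *OOEP* and *NPM2* were -1.01, -1.01 and -1.04.

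**Figure D3:**
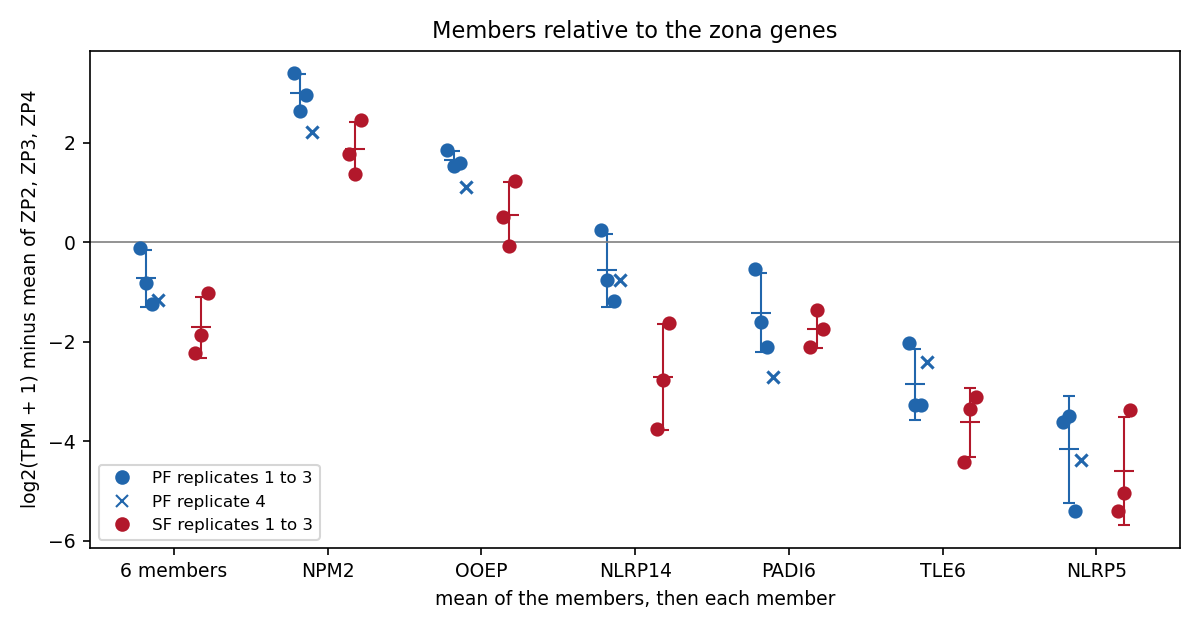
Log2(TPM + 1) minus the mean of *ZP2*, *ZP3* and *ZP4* (y axis) for the mean of the 6 genes and for each gene (x axis), with 1 point per library and the mean ± SD of the 3 libraries in the comparison. PF replicates 1 to 3 and SF are apart for *NPM2*, *OOEP* and *NLRP14*, with the cross of PF replicate 4 inside the SF range for the first 2, and overlap for the other genes and for the mean of the 6.

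The choice of zona gene mattered. Against *ZP3* alone the difference of the 6 genes was -0.24, against *ZP2* alone -1.41 and against *ZP4* alone -1.31. Against *ZP3* alone *NLRP14* still had the largest difference (-1.40), *OOEP*, *NPM2* and *TLE6* had -0.36, -0.38 and -0.01, and *PADI6* and *NLRP5* had 0.42 and 0.31, and all 6 overlapped between the groups.

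The ratio to *ZP3* can be read directly from the TPM. *NPM2* stood at 88.8%, 82.6%, 79.4% and 81.1% of the *ZP3* level in PF replicates 1 to 4, and at 49.0%, 45.3% and 119.8% in SF replicates 1 to 3. *OOEP* stood at 30.5%, 38.1%, 30.5% and 37.2% in PF and at 20.1%, 16.4% and 50.1% in SF. In both genes the 4 PF libraries, replicate 4 included, were close together, SF replicates 1 and 2 were lower, and SF replicate 3 was the highest of all 7.

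*NLRP14* stood at 9.92%, 7.79%, 4.39% and 9.76% of the *ZP3* level in PF and at 0.954%, 2.44% and 5.79% in SF. SF replicate 3 exceeded PF replicate 3 here as well. *PADI6* stood at 5.73%, 4.32%, 2.29% and 2.05% in PF and at 3.19%, 6.67% and 5.26% in SF, with no separation of the groups.

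The 6 genes were also measured against 14 oocyte marker genes in place of the zona genes, a reference added after the data were seen. They differed between the groups by less than the SD of the PF libraries but by more than that of the SF libraries. Their mean log2(TPM + 1) minus that of the markers was -0.13 ± 0.39 in PF and -0.23 ± 0.05 in SF, a difference of -0.10. This difference was -0.34 within library numbers below 40 and 0.35 within numbers above 40 without PF replicate 4. The same measure for the 3 zona genes was 0.59 ± 0.23 in PF and 1.48 ± 0.57 in SF, a difference of 0.89. Here all SF libraries lay above PF replicates 1 to 3, but PF replicate 4, at 1.11, lay above SF replicate 3.

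Among the marker lists, 11 of 14 oocyte genes were called lower in SF and none higher, and 8 of 12 granulosa genes were called higher and none lower. Over all genes tested, 11.0% were called lower and 8.14% higher. The summed TPM of the oocyte list was 1978 to 4267 in PF replicates 1 to 3, 1314 in PF replicate 4 and 610 to 1295 in SF. That of the granulosa list was 2097 to 2985, 1915 and 6538 to 7275. The levels of the 6 genes were lower in SF, as was the oocyte list, while the granulosa list was higher. In PF replicate 4 the 6 genes and the oocyte list were low against PF replicates 1 to 3, with a granulosa list score of 4.97, inside the 4.93 to 5.01 of PF replicates 1 to 3. The part of the changed makeup of the follicle in their differences was not tested. Of 7 stromal genes tested 1 was called higher, with a summed list TPM of 419 to 608 in PF replicates 1 to 3, 6182 in PF replicate 4 and 215 to 523 in SF. None of the 3 theca, 2 endothelial and 1 immune genes tested was called.

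Within the group, the pairs of genes differed in how steady their ratio was over the 7 libraries. The steadiest of the 15 pairs was *NPM2* and *OOEP*, with an SD of the log2 ratio of 0.16. *NPM2* had between 2.17 and 2.92 times the TPM of *OOEP* in every library, although the level of *NPM2* itself ran from 93.0 to 1606 TPM. The least steady pair was *NLRP14* and *PADI6*, with an SD of 1.31. The ratio of *NLRP14* to *PADI6* was 1.73, 1.80 and 1.92 in PF replicates 1 to 3 and 4.77 in PF replicate 4, against 0.299, 0.366 and 1.10 in SF replicates 1 to 3. All 4 PF libraries thus lay above all SF libraries. These pairs were picked after their values were seen, and no test was made.

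**Figure D4:**
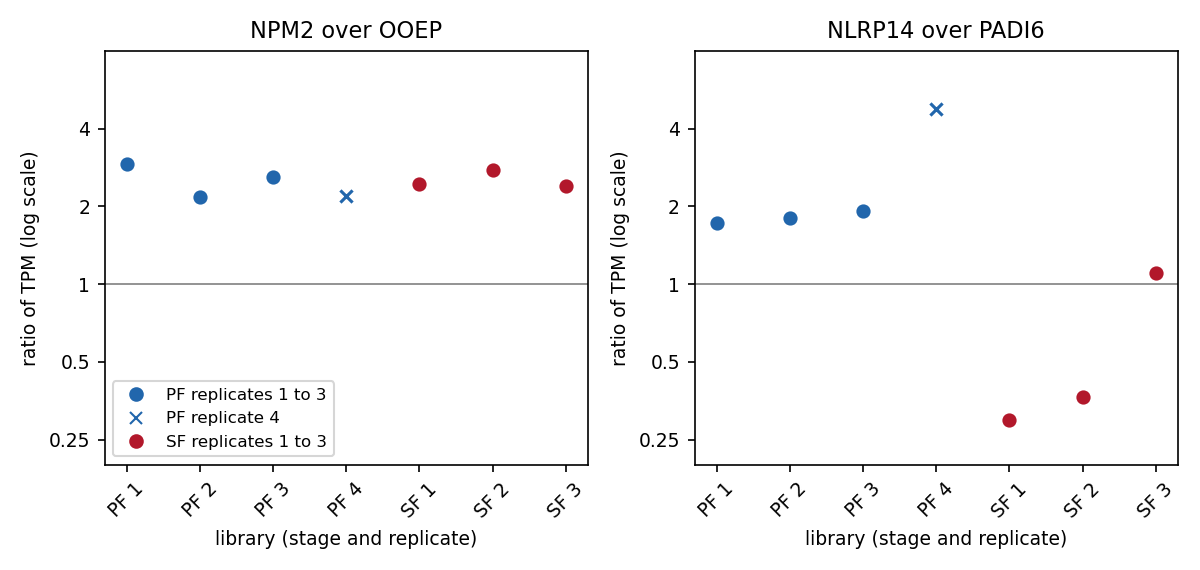
Ratio of TPM on a log scale (y axis) in each of the 7 libraries (x axis) for *NPM2* over *OOEP* and for *NLRP14* over *PADI6*. The first ratio stays between 2.17 and 2.92, and the second is 1.73 or more in every PF library and 1.10 or less in every SF library.

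A list of 28 further genes held other proteins that belong to or bind the complex, other NLRP genes, and the relatives of *NPM2*, *PADI6* and *TLE6*. Of these, 22 had a matched model, and *NLRP1*, *NLRP3* and *NLRP6* were at 0 estimated counts in all 7 libraries by the models matched. Of the 15 that were tested, 4 were called lower in SF and 1 higher, beside the 11.0% and 8.14% of all genes tested. Their median log2 fold change was -0.52. *KHDC3L*, the neighbour of *OOEP*, and *NLRP4*, *NLRP7*, *NLRP8*, *NLRP10* and *NLRP11* were not analysed here.

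Among the other NLRP genes, *NLRP9* and *NLRP13* fell. *NLRP9* had 23.1, 9.68 and 8.23 TPM in PF replicates 1 to 3, 1.41 TPM in PF replicate 4, and 1.29, 4.72 and 0.391 TPM in SF replicates 1 to 3 (-2.60 ± 0.84 on the log2 scale, DESeq2 adjusted p = 0.015). *NLRP13*, which lies near *NLRP5* on the assembly of the gene table, had 30.9, 18.6 and 11.4 TPM in PF replicates 1 to 3, 2.31 TPM in PF replicate 4, and 3.64, 7.68 and 1.25 TPM in SF replicates 1 to 3 (-2.19 ± 0.65 on the log2 scale, DESeq2 adjusted p = 0.0074). Both were lower in every SF library than in PF replicates 1 to 3. *NLRP2*, a partner of the complex in the mouse, did not pass, with 3.54 ± 3.15 TPM in PF and 4.18 ± 3.92 TPM in SF, and only 3 estimated counts in SF replicate 3.

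The calls of both genes ended without PF replicate 1 (DESeq2 adjusted p = 0.15 for *NLRP9* and 0.081 for *NLRP13*) and with PF replicate 4 kept (0.15 and 0.17). That of *NLRP9* also ended without SF replicate 1 (0.072).

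*DPPA3*, an oocyte protein that guards DNA methylation in the early embryo, had 43.4 ± 12.1 TPM in PF and 14.0 ± 9.21 TPM in SF and was called lower (log2 fold change -1.56 ± 0.55, DESeq2 adjusted p = 0.030). It is also one of the 14 oocyte markers. *UHRF1*, a regulator of maintenance methylation, and *UBE2D3*, a ubiquitin-conjugating enzyme, did not pass. *UHRF1* had 64.3 ± 5.80 TPM in PF and 34.2 ± 22.0 TPM in SF (DESeq2 adjusted p = 0.22), and *UBE2D3* had 794 ± 127 and 479 ± 24.0 TPM (0.090). *UHRF1* passed, with lower levels in SF, without SF replicate 2 (DESeq2 adjusted p = 0.034), as did *UBE2D3* without SF replicate 3 (0.011) and with a transcript length offset (0.045).

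The relatives of the members that are not confined to oocytes behaved differently from each other. *NPM3*, a nucleoplasmin family gene, fell from 51.6 ± 24.4 TPM in PF to 16.0 ± 2.14 TPM in SF (-1.53 ± 0.47 on the log2 scale, DESeq2 adjusted p = 0.010). *NPM1*, the nucleolar relative, did not pass, with 403 ± 104 TPM in PF and 453 ± 139 TPM in SF. *TLE2* rose, with 10.7, 3.73 and 11.0 TPM in PF replicates 1 to 3, 9.07 TPM in PF replicate 4, and 24.5, 25.7 and 17.9 TPM in SF replicates 1 to 3 (1.50 ± 0.53 on the log2 scale, DESeq2 adjusted p = 0.031). All SF libraries lay above all PF libraries. *TLE1*, *TLE3*, *TLE4* and *TLE5* did not pass, with log2 fold changes of 0.89, 0.82, -0.65 and 0.11. *TLE1* passed without PF replicate 3 (DESeq2 adjusted p = 0.0066) and *TLE4* without SF replicate 3 (0.0021). *ZBED3*, a protein that binds the complex in the mouse, did not pass either (0.81 ± 0.46, DESeq2 adjusted p = 0.21). The relatives of *PADI6* were barely present, with *PADI1* to *PADI4* at 1.70 TPM or less in every library.

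With PF replicate 4 kept, the calls of *DPPA3*, *NPM3* and *TLE2* ended (DESeq2 adjusted p = 0.55, 0.25 and 0.059). So they did without PF replicate 1 (0.074, 0.060 and 0.086). The call of *DPPA3* also ended without PF replicate 2 (0.16) or SF replicate 1 (0.089), that of *NPM3* without PF replicate 2 (0.085) or SF replicate 2 (0.074), and that of *TLE2* without SF replicate 1, 2 or 3 (0.10, 0.14 and 0.062). Adding a covariate for the range of the library number ended the calls of *DPPA3* (0.064) and *TLE2* (0.059).

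The profile of the 6 genes over the 7 libraries was compared with that of each gene of 5 TPM or more on average, 10162 genes in all. The measure was the mean absolute difference of log2(TPM + 1) from the mean of the 6 genes, each profile first centred on its own mean over the 7 libraries. The closest were *LOC531152* (0.095), the membrane estrogen receptor *GPER1* (0.13), *PHYHIPL* (0.14), the spindle protein *TACC3* (0.14), the actin capping protein *TMOD1* (0.15), the deubiquitinase *USP2* (0.15), the syndecan *SDC3* (0.15) and the glycosyltransferase *GCNT1* (0.15). *TACC3*, for example, had 181, 198 and 75.1 TPM in PF replicates 1 to 3, 21.3 TPM in PF replicate 4, and 36.1, 52.2 and 14.2 TPM in SF. Depth and the oocyte and granulosa list scores differed between the 7 libraries. Their part in the likeness was not tested, so likeness is a description.

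Of the oocyte markers, 3 transcription factors were the most alike, with *FIGLA* at rank 70 (0.26), *LHX8* at rank 94 (0.28) and *NOBOX* at rank 107 (0.29). *DAZL* followed closely at rank 127 (0.30). The remaining markers ran from *MOS* at rank 388 (0.42) to *OOSP2* at rank 4242 (1.16), with *SOHLH1*, for example, at rank 956 (0.61). The zona genes lay inside the range of the markers, with *ZP3* at rank 691 (0.52), *ZP4* at 1117 (0.66) and *ZP2* at 1708 (0.79). Of the 6 genes themselves, *OOEP* (0.28) and *NPM2* (0.28) were closest to their common profile, and *PADI6* (0.51) and *NLRP14* (0.60) were farthest from it.

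**Figure D5:**
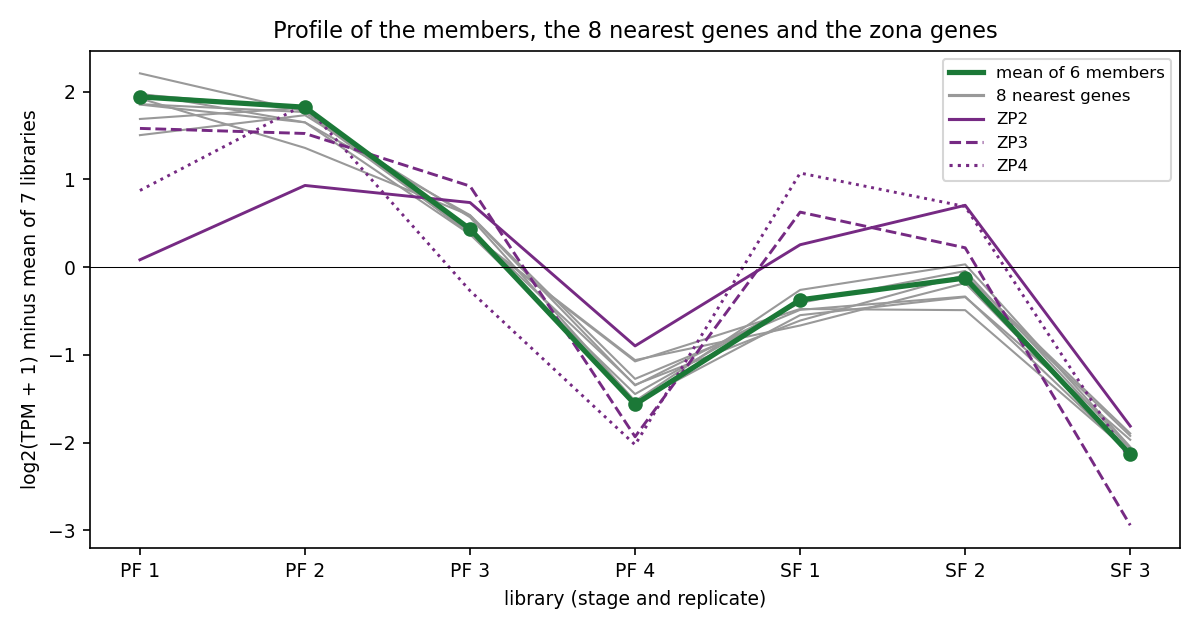
Log2(TPM + 1) minus the mean over the 7 libraries (y axis) in each library (x axis) for the mean of the 6 genes, the 8 closest genes and the zona genes. The 8 closest genes stay close to the mean of the 6 in every library, whereas the zona genes lie above it in SF replicates 1 and 2, and the lines join libraries only to guide the eye.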

How the data were processed

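The authors amplified cDNA with SMART-Seq v4, a kit that keeps no strand information, trimmed paired reads with Trim Galore and fastp, and quantified them with Salmon against the bovine transcriptome of ARS-UCD1.3. Per the file headers, the deposited tables give an estimated count and a TPM per RefSeq transcript, 1 table per library. Of 76123 transcripts, 50205 (66.0%) were matched by accession to 23704 genes of a RefSeq table of ARS-UCD2.0, used for names and neighbours only, so no coordinates are given. The 25918 others held 9.71% to 10.7% of the counts, so a gene can be incomplete. Counts and TPM were summed per gene, and counts rounded.

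Groups came from the sample titles. SF was compared with PF, 3 libraries each, with the Wald test of DESeq2 1.42.0 (R 4.3.3), default independent filtering, and a threshold of 0.05 on the Benjamini-Hochberg adjusted p. Of 19009 genes with counts, 15056 were tested. The script was tested on simulated counts whose dispersions were capped at the median over genes. That test therefore says nothing about calls of genes with a wider spread. Alternatives were edgeR 4.0.16, limma 3.58.1 on log2(TPM + 1) or log2(TPM + 0.1) for genes with 1 TPM in 3 libraries or with no filter, TMM factors, size factors from the zona genes, a transcript length offset, a minimum of 10 counts in 3 libraries, a replicate block, a covariate for library numbers below or above 40, all 7 libraries, and each library left out. For the ratio to the zona genes, other references and leaving out each member were tried; the oocyte markers as reference and the left-out members were added after seeing the data.

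The members and all lists were chosen with earlier results of these data known. Named were the members, the zona genes, listed genes with a mean of 1 TPM or more, and the 8 genes closest in profile. A total of 8 marker lists were counted (oocyte, granulosa, stromal fibroblast, endothelial, theca, immune, erythroid, and smooth muscle with pericyte). Of 4 smooth muscle and pericyte genes 1 was called higher in SF, beside 8.14% of all genes tested. The erythroid list had 1 tested gene, which was not called. Sequences were not used here. The amplified reads carry no molecular identifiers and are not independent molecules. Python 3.11.15, numpy 2.4.6, pandas 2.3.3 and matplotlib 3.10.9 were used.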

Additional observations from a re-analysis of the deposited data

How the results depend on the processing

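All 6 members had fold changes below 0 under every alternative fit, but their calls depended on the tool. DESeq2 called 2876 genes, 4 members, and 4 related genes lower and 1 higher. The counts of genes were 0 with edgeR (smallest adjusted p 0.053), 792 with limma on log2(TPM + 1), 2 on log2(TPM + 0.1) and 0 with no filter (4043 at an unadjusted p below 0.05). The counts of members were 0, 3, 0 and 0 in that order, and related genes had 0 calls in either direction under all 4. With all 7 libraries 858 genes, 1 member (*NLRP14*) and 0 related genes were called. With the library number as a covariate *TLE2* and *DPPA3* were lost, leaving 3 related genes lower and 0 higher, and *NLRP5* was lost among the members. Leaving out 1 library gave 1887 (without PF replicate 2) to 3947 genes (without PF replicate 3), 3 to 4 members, 0 to 6 related genes lower, with 0 without PF replicate 1, and 0 to 2 higher. Scaling to the zona genes moved the median log2 fold change of all genes tested from 0.02 to 1.76. It called 1400 genes, of which 96.9% were higher in SF against 42.6% in the comparison above. It called 0 members and 0 related genes lower. The members' log2 fold changes were then -2.17 (*NLRP14*) to -0.50 (*PADI6*). In the same fit *ZP2* (0.43), *ZP4* (0.32), *UBE2D3* (1.50), *UHRF1* (0.42), *NPM3* (0.36) and *TLE4* (1.69) changed sign. The share of higher calls was 29.4% with limma on log2(TPM + 1). None of the genes with other changes of sign was called above, with *TLE5* at -0.051 (log2(TPM + 1), both filters) and -0.052 (log2(TPM + 0.1)) in limma and -0.27 to 0.31 when 1 library was left out, *NLRP2* at -0.0087 and -0.50 in the same fits, -0.51 with the replicate block and -0.43 to 1.26 when 1 library was left out, and, also over left-out libraries, *ZP4* at -1.14 to 0.049 and *NPM1* at -0.020 to 0.54. The cause of the changes was not tested. The members minus the zona genes (-0.99) became -0.51 as a ratio of summed TPM, -0.24 against *ZP3* alone, -1.77 and -0.21 within library numbers below and above 40, -0.10 against the oocyte markers, and -1.33 to -0.68 when 1 library was left out. It was -0.75 without *NLRP14* among the members.

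Replicate numbers were not taken to pair the samples. The deviations of same-numbered libraries correlated at 0.26, -0.04 and 0.40, and those of differently numbered libraries at -0.42 to 0.26. The value of 0.40 was thus the highest, and these few values do not settle whether the numbers pair the samples. With the replicate number as a block DESeq2 called 4077 genes, among them all 6 members and *ZP3* lower. It called 5 related genes lower (*UHRF1* added) and 2 higher (*TLE1* added). The members minus the zona genes could not change with this block. The mean of the differences by replicate number equals the difference of the group means (-0.99). Few counts limit *NLRP5* and *TLE6* in SF replicate 3 (33 and 26 counts), although this library was the deepest, with 23764615 estimated counts.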
